A study of Homo sapiens with 16 samples.

Results

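APLN and UCN2 each encode the precursor of a secreted signalling peptide. They are 2 of the 61906 genes in the expression tables and were taken by symbol, together with every transcript listed under each symbol. They were chosen by their measured short-read levels: in these libraries, depletion of the RNA-binding protein HNRNPH1 moved them in opposite directions in 2 human cell lines. The change in each line and the difference between the lines therefore describe APLN and UCN2 and carry no test. The same holds for their levels before depletion, since the control libraries entered that difference.

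Apelin, the product of APLN, is the ligand of the G protein-coupled receptor APLNR. It is best known from endothelial cells, where low oxygen raises it and where it acts on vessel growth and vascular tone. Urocortin 2, the product of UCN2, belongs to the corticotropin-releasing factor family and binds mainly the receptor CRHR2, which raises cyclic AMP. HNRNPH1 binds G-rich stretches of RNA and takes part in the choice of splice sites.

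HEK-293T is an established line from human embryonic kidney, and HT-1080 is an established line from a human fibrosarcoma. Each was transfected with 20 nM of an siRNA against HNRNPH1 (siHNRNPH1) or of a control siRNA (siNegative), and RNA was taken 48 h later. The 4 groups had 3 short-read libraries each, from what the labels call biological replicates, and 1 long-read (IsoSeq) library each, made from the pooled replicates. HEK-293T was grown in DMEM and HT-1080 in EMEM, and each line has its own count table, so line, medium, table and sequencing depth cannot be told apart. siNegative is the one control, and every library comes from transfected cells. Fewer cells with a transcript and less transcript per cell cannot be told apart in bulk RNA.

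Summed expected counts ran from 107.7 to 121.0 M (M, 1000000) over the HEK-293T short-read libraries and were lower in HT-1080, at 27.3 to 32.7 M. HNRNPH1 itself stood at 1105 to 1121 CPM (the count divided by the library's total in M) in HEK-293T siNegative and at 234 to 394 CPM in HEK-293T siHNRNPH1. In HT-1080 it stood at 606 to 635 CPM and at 228 to 231 CPM. Its log2 change with siHNRNPH1 was -1.76 (SE 0.20; edgeR quasi-likelihood test, Benjamini-Hochberg adjusted p = 0.00939) in the kidney line and -1.49 (SE 0.04; adjusted p = 6.76e-09) in the fibrosarcoma line. Replicate 1 of HEK-293T siHNRNPH1 stood apart: over 15631 genes its log2 levels correlated with the other replicates of its group at r = 0.944 and 0.939, against 0.996 to 0.999 for every other pair of replicates. The summed level of 5 HEK-293T markers was 570 to 869 CPM in HEK-293T and 97.9 to 137 CPM in HT-1080. That of 5 HT-1080 markers was 2949 to 4483 CPM in HT-1080 and 17.8 to 19.7 CPM in HEK-293T. Against its list, NEFL of the first was higher in HT-1080 siNegative, by 0.97 on the log2 scale (edgeR adjusted p = 9.56e-09). S100A4 of the second had a difference of 0.63 that did not pass (edgeR adjusted p = 0.118). Of 5 endothelial markers, none reached a group mean of 1 CPM, and their sum was 0.195 to 1.16 CPM over all 12 libraries.

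The promoters of APLN and UCN2 differ in base composition and in the short motifs they hold. The RefSeq windows (GRCh38.p14) run from 250 bases before to 50 bases after each start, at chrX:129654907-129655206 for APLN and chr3:48563732-48564031 for UCN2, both on the minus strand. The APLN window is 68.0% G and C with 22 CpG pairs, the UCN2 window 60.0% with 3, and the medians of all windows are 58.7% and 14. The stretches below hold every match found, with the motif in capitals. They are shown because AP-1, hypoxia and GC-box sites are well-known control elements, and the motifs were picked after these windows had been read. Each is written 5′ to 3′ on the minus strand.
UCN2, AP-1 site, chr3:48563867-48563893: ccgggagggaTGAGTCAtaggtggggg
APLN, hypoxia response core, chrX:129655084-129655108: gctgcagagtGCGTGcctggagggg
APLN, hypoxia response core in reverse, chrX:129655109-129655133: ctctcgcgctCACGCtcgggctggg
APLN, GC box, chrX:129655069-129655094: gcctggagggGGGCGGtgcgggaggc

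The AP-1 letters TGAGTCA began 102 bases before the UCN2 start and were found in 4.95% of 35116 promoter windows, counting both strands. The 2 matches to the core GCGTG in the APLN window, 142 and 167 bases before the start, are of a kind found in 36.5% of windows, and the other core ACGTG (21.4% of windows) was in neither gene's window. The GC box GGGCGG, 128 bases before the APLN start, was found in 45.0% of windows. APLN had no AP-1 match, and UCN2 had no match to GCGTG or GGGCGG. Neither window held TGACGTCA (1.85% of windows), CACGTG (7.26%), TATAAA (11.5%) or CCAAT (34.6%). A match is a run of letters, and no binding was measured.

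APLN (ENSG00000171388.12) was expressed at a low level in every library. In HEK-293T siNegative cells its levels were 2.48, 2.63 and 2.37 CPM (276, 306 and 287 counts), a mean of 2.5 ± 0.132 CPM (SD, n = 3). In HEK-293T siHNRNPH1 cells they were 8.07, 9.22 and 8.71 CPM (870, 1114 and 938 counts), a mean of 8.67 ± 0.576 CPM. All 3 depleted libraries lay above all 3 control libraries, and the mean was 3.47 times as high.

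In HT-1080 the order of the siRNAs was the opposite. APLN stood at 6.04, 5.25 and 4.89 CPM in siNegative cells (165, 158 and 148 counts), a mean of 5.39 ± 0.591 CPM (SD, n = 3). In siHNRNPH1 cells it stood at 1.4, 1.44 and 1.37 CPM (41, 47 and 39 counts), a mean of 1.4 ± 0.0349 CPM. Every depleted library lay below every control library, and the control mean was 3.84 times the depleted mean.

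UCN2 (ENSG00000145040.4) was detected at a low level in HEK-293T control cells and was higher in the other 3 groups. Its levels in HEK-293T siNegative were 0.405, 0.539 and 0.449 CPM (45, 62.66 and 54.4 expected counts), a mean of 0.465 ± 0.0684 CPM (SD, n = 3). In HEK-293T siHNRNPH1 they were 4.87, 4.21 and 4.24 CPM (524.67, 508.3 and 457.19 expected counts), a mean of 4.44 ± 0.372 CPM. The depleted mean was 9.56 times the control mean, with no overlap, and the highest depleted value was that of replicate 1, the library that stood apart.

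In HT-1080, UCN2 was high in both conditions. Control libraries held 26, 25.4 and 26.6 CPM (709.49, 764.62 and 803.84 expected counts), a mean of 26 ± 0.583 CPM (SD, n = 3), and depleted libraries 20.9, 21.2 and 19.2 CPM (611.29, 693.6 and 546.64 expected counts), a mean of 20.5 ± 1.1 CPM. The groups did not overlap, but the control mean was only 1.27 times the depleted mean. The opposite response of UCN2 was thus lopsided, large upward in HEK-293T and small downward in HT-1080, whereas that of APLN was of similar size each way.

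**Figure D1:**
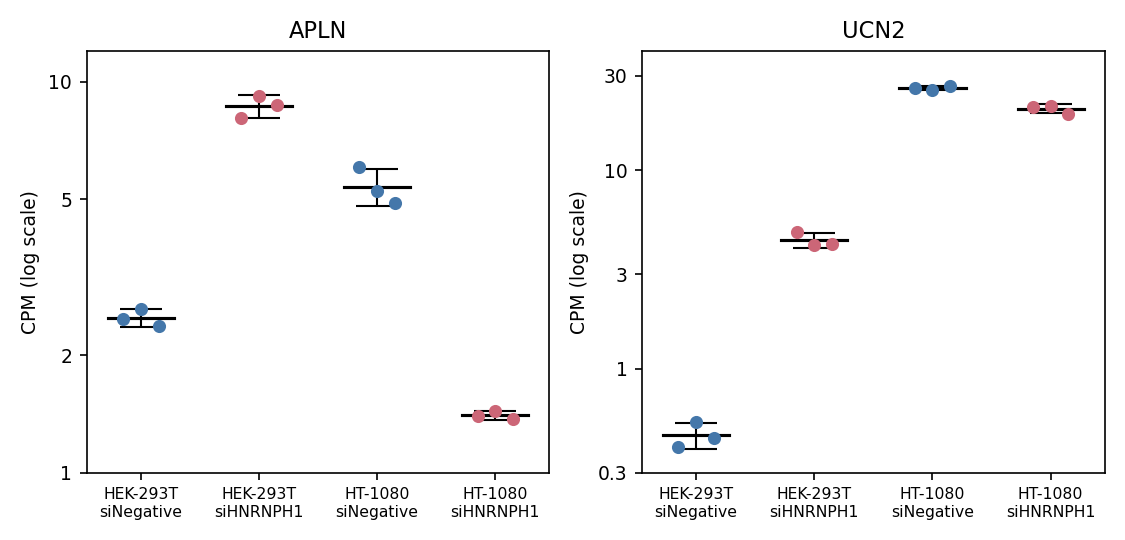
Levels of APLN and UCN2 in the 12 short-read libraries, as CPM on log axes with a different range in each panel. Points are libraries, horizontal lines group means and bars 1 SD (n = 3): APLN is highest in HEK-293T siHNRNPH1 (8.67 CPM) and lowest in HT-1080 siHNRNPH1 (1.4 CPM), while UCN2 is lowest in HEK-293T siNegative (0.465 CPM) and highest in HT-1080 siNegative (26 CPM).

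The fitted log2 fold changes of siHNRNPH1 over siNegative for APLN were 1.77 with an SE of 0.12 in HEK-293T and -2.00 with an SE of 0.13 in HT-1080. For UCN2 they were 3.23 (SE 0.19) and -0.41 (SE 0.06). The HT-1080 effect minus the HEK-293T effect was -3.85 (SE 0.17) for APLN and -3.71 (SE 0.19) for UCN2. The difference was ordered by its p among 15631 genes with a mean of at least 50 counts over the 12 short-read libraries. APLN was number 2 and UCN2 number 5. These ranks come from the same levels that led to their choice, so they are no test. Leaving out the library that stood apart gave HEK-293T changes of 1.79 for APLN and 3.12 for UCN2, and line differences of -3.84 and -3.58.

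These values stand against a transcriptome in which many genes moved. In HEK-293T, 10.0% of 19966 genes tested passed the adjusted p threshold of 0.05 (5.12% higher and 4.88% lower with siHNRNPH1) and 43.7% had siRNA groups that did not overlap in CPM. Without the HEK-293T library that stood apart, 61.8% of 20329 genes passed (30.5% higher and 31.3% lower), and each count of related genes without that library is to be read against these shares. In HT-1080, 65.3% of 16145 genes passed (32.7% higher and 32.6% lower) and 70.5% did not overlap. Of 21276 genes tested, 19.0% had a line difference in the siRNA effect (8.13% a greater and 10.8% a lesser value in HT-1080). A gene called higher in HEK-293T and lower in HT-1080 was less common: there were 84 among 15010 genes tested in both lines (0.56%), which include APLN and UCN2. This count and the next use the fits of all libraries and were not made without the one that stood apart. With a log2 change above 1 in the first line and below -1 in the second there were 9 (0.06%), among them APLN but not UCN2, whose HT-1080 change was smaller. The other 8, named after their values were seen, were TNIP3, SLC43A3, GABBR2, HSPA6, HRH2, CHST4, MYC and CD34. Their levels differed widely. TNIP3 had a mean of 0.0547 CPM in HT-1080 siHNRNPH1, where 3 counts make 0.0919 to 0.105 CPM. TNIP3, CHST4 and CD34 had means below 1 CPM in every group, while those of MYC ran from 21.2 to 122 CPM.

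Before depletion both genes were higher in HT-1080. The log2 difference of HT-1080 minus HEK-293T in siNegative cells was 1.36 (SE 0.10) for APLN and 6.05 (SE 0.09) for UCN2. In mean CPM this was a ratio of 2.16 for APLN and of 55.9 for UCN2, higher in 3 of 3 libraries in each case. Line differences were the rule, since 86.6% of 19776 genes passed the edgeR test (40.8% higher and 45.8% lower in HT-1080) and 88.8% did not overlap. A difference as large as that of APLN, in either direction, was found in 43.7% of genes, and one as large as that of UCN2 in 11.3%. Scaling by library size alone lowered the median of all genes from -0.10 to -0.36, and the differences were then 1.11 for APLN and 5.8 for UCN2.

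After depletion the order of the lines reversed for APLN and held for UCN2. In siHNRNPH1 cells APLN was 6.17 times as high in HEK-293T as in HT-1080, whereas UCN2 was 4.61 times as high in HT-1080 as in HEK-293T. From lowest to highest, the APLN groups ran HT-1080 siHNRNPH1, HEK-293T siNegative, HT-1080 siNegative and HEK-293T siHNRNPH1. The UCN2 groups ran HEK-293T siNegative, HEK-293T siHNRNPH1, HT-1080 siHNRNPH1 and HT-1080 siNegative. In neither gene did neighbouring groups of this order overlap, but such separation was common. The siRNA groups did not overlap in 43.7% of genes in HEK-293T and 70.5% in HT-1080, nor the siNegative groups of the lines in 88.8%. For the other steps the share was not counted. The means of neighbouring groups lay at least 3.97 combined SDs apart for APLN and 4.42 for UCN2, a description of the levels that chose these genes.

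Each gene has 1 transcript in the tables, ENST00000429967.3 for APLN and ENST00000273610.4 for UCN2, so the gene values are also the transcript values. The APLN counts were whole numbers in 12 of 12 libraries. Those of UCN2 were fractional in 11 of 12, as the RSEM estimator gives where reads are divided among transcripts.

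The IsoSeq models showed APLN as the same 3-exon gene in all 4 pools. HEK-293T siNegative, the pool with the fewest models in all (64705, against 68078 to 94847), had 1 APLN model and the other 3 pools had 2 each. The 3 exons met the same introns throughout, with the middle exon at chrX:129648621-129648792 on the minus strand. The 5′ ends lay from 1 base inside to 33 bases before the RefSeq start. The models differed at the 3′ end: 4 of the 7 ended at 129645810 or 129645811, and the other 3, present in each pool except HEK-293T siNegative, ended between 129645261 and 129645349. Spliced lengths were 2672 to 2706 bases for the first kind and 3135 to 3221 bases for the second. The pools hold models and no read counts, so the ends cannot be weighed against each other.

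UCN2 was joined to its neighbour in 5 of the 7 IsoSeq models that held it, all from HT-1080. Neither HEK-293T pool listed a UCN2 model, although depleted HEK-293T cells held 457.19 to 524.67 short-read expected counts of UCN2 per library. In HT-1080, siNegative had 1 model of UCN2 alone and 4 in which UCN2 was spliced to PFKFB4, the next gene in the direction of transcription. The siHNRNPH1 pool had 1 of each. These pools listed 72186 and 68078 models in all and no read counts, so numbers of models do not compare amounts of joined transcript. PFKFB4 makes an enzyme that sets the level of fructose 2,6-bisphosphate and so the pace of glycolysis.

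The joined models shared a start and most of a junction. Their first base lay at 48563781 to 48563785 on chromosome 3, 0 to 4 bases before the RefSeq start of UCN2. In 4 of the 5 the UCN2 exon ended at 48561587, 131 bases past the RefSeq end of UCN2, and in the other at 48561591. Both sites were spliced to PFKFB4 at 48550234, over introns of 11352 and 11356 bases. The 5 models had 14 to 16 exons and spliced lengths of 4948 to 5566 bases, and 1 of them kept the intron inside UCN2. The models of UCN2 alone had 2 exons and 1496 or 1577 bases. When a model had to share a splice junction with UCN2 to be counted, the joined models in HT-1080 siNegative numbered 3 rather than 4.

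**Figure D2:**
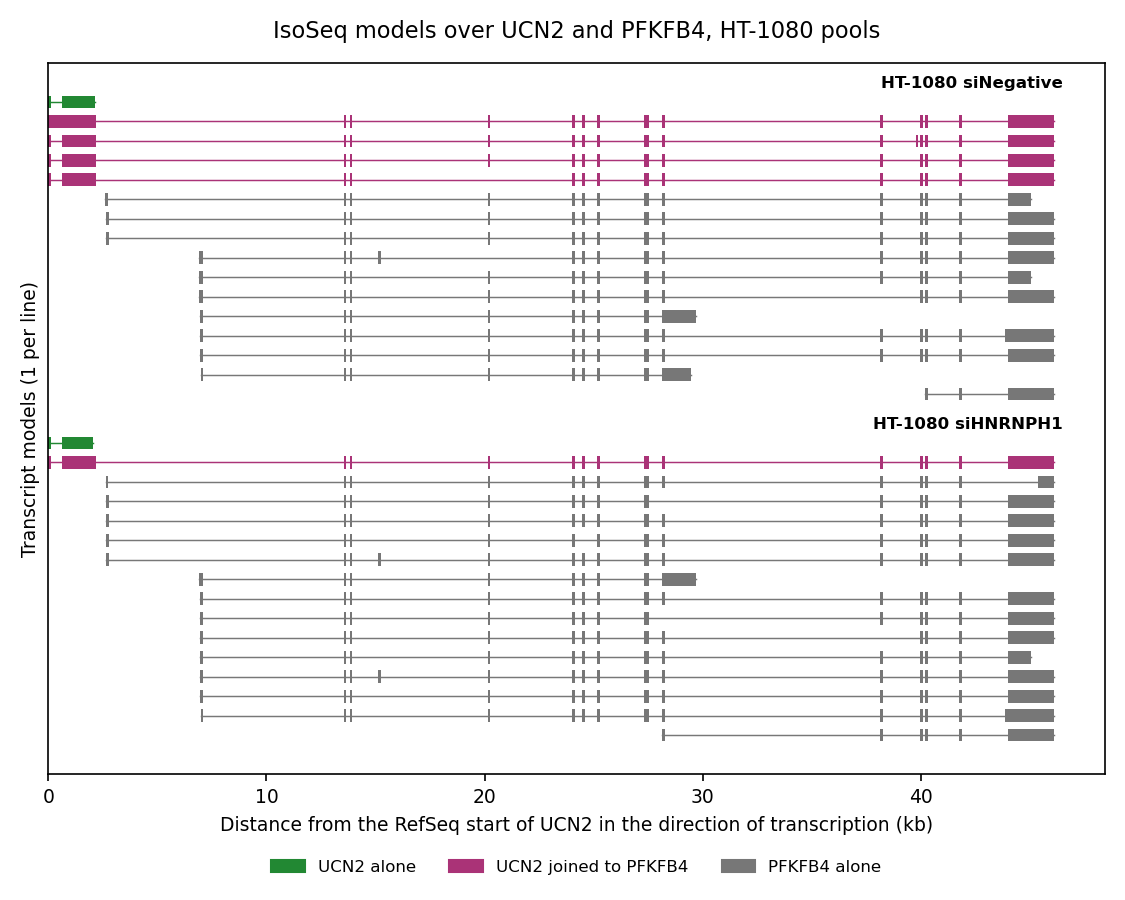
IsoSeq models of UCN2 and PFKFB4 in the HT-1080 pools, 1 model per line, with exons as boxes (very short exons widened to remain visible) and distance from the RefSeq start of UCN2 in kb along transcription. UCN2 is joined to PFKFB4 in 4 siNegative models and 1 siHNRNPH1 model, and 3 and 5 models of PFKFB4 alone start within 1000 bases of the end of UCN2. Models carry no read counts, so their numbers are not amounts.

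PFKFB4 also started close to UCN2 in HT-1080. Of the models of PFKFB4 alone, 3 of 11 in siNegative and 5 of 14 in siHNRNPH1 began at 48561124 to 48561162, within 1000 bases of the end of UCN2. In HEK-293T all models of PFKFB4 alone, 1 in siNegative and 4 in siHNRNPH1, began in the interval 48556801 to 48556870. How RSEM divided reads of the joined transcripts between UCN2 and PFKFB4 was not tested.

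The 2 genes that flank UCN2 rose on depletion in both lines, so that they shared the direction of UCN2 in HEK-293T and not in HT-1080. PFKFB4 rose from 8.74 ± 0.408 to 18.9 ± 1.5 CPM in HEK-293T (SD, n = 3 each; log2 change 1.09, SE 0.13; edgeR adjusted p = 0.00978) and from 121 ± 4.48 to 155 ± 3.29 CPM in HT-1080 (0.29, SE 0.05; adjusted p = 0.000322). COL7A1, which encodes the collagen of anchoring fibrils in skin and lies on the other side of UCN2, rose from 10.1 ± 0.411 to 42.4 ± 3.66 CPM in HEK-293T (2.05, SE 0.13; edgeR adjusted p = 0.00424). In HT-1080 COL7A1 rose from 34.1 ± 0.52 to 72 ± 1.88 CPM (1.01, SE 0.05; adjusted p = 9.44e-08). Both changes were smaller in HT-1080, by 0.88 on the log2 scale for PFKFB4 and by 1.11 for COL7A1 (interaction term of edgeR, adjusted p = 0.00227 and 0.000401). Both genes were also higher in HT-1080 before depletion, by 4.04 and 2.01 on the log2 scale (adjusted p = 4.65e-12 and 1.55e-10). The HT-1080 call of PFKFB4 was lost in a fit of all 12 libraries. In HEK-293T the calls of both genes were lost when any siNegative replicate was left out and with a replicate block. Both held without the library that stood apart. Of all genes 10.0% passed in HEK-293T and 65.3% in HT-1080.

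Farther from UCN2 the neighbours followed no single direction. In HEK-293T, SHISA5 had a log2 change of 0.40, TREX1 of 0.03 and UQCRC1 of -0.50, and none passed the test. Without the library that stood apart all 3 passed, at 0.09 for SHISA5, -1.10 for TREX1 and -0.84 for UQCRC1 (edgeR adjusted p = 0.0357, 5.12e-05 and 1.76e-15), against 61.8% of all genes. In HT-1080 SHISA5 rose by 0.32, while TREX1 fell by 1.35 and UQCRC1 fell by 0.57 (edgeR adjusted p = 6.57e-05, 1.11e-06 and 7.11e-05), and all 3 calls were lost in the fit of all 12 libraries. Of all genes 65.3% passed in HT-1080. TMEM89 was too low to test.

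The neighbours of APLN changed less than APLN did. OCRL, SMARCA1 and ZDHHC9 had log2 changes of 0.29, -0.08 and 0.00 in HEK-293T, and none passed the test. Without the library that stood apart all 3 rose there, by 0.56, 0.16 and 0.09 (edgeR adjusted p = 4.06e-13, 0.000341 and 0.0142), where 61.8% of all genes passed. In HT-1080 SMARCA1 rose by 0.59 and ZDHHC9 by 0.23 (edgeR adjusted p = 7.79e-06 and 0.00535), and OCRL had a change of 0.01. APLN was lower after depletion in this line, and 65.3% of all genes passed there. The ZDHHC9 call was lost in the fit of all 12 libraries. ACTRT1, XPNPEP2 and SASH3 were too low to test.

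**Figure D3:**
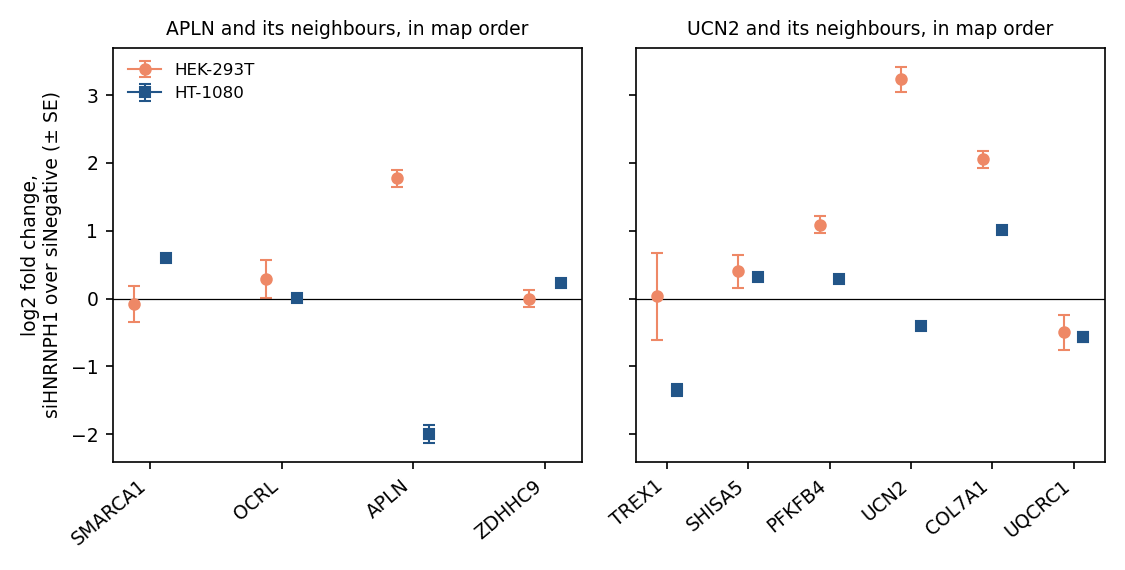
Log2 fold change of siHNRNPH1 over siNegative (points, with SE bars) in HEK-293T (circles) and HT-1080 (squares) for APLN, UCN2 and those of their 3 nearest genes on each side that could be tested, in map order. UCN2 lies at 3.23 and -0.41 between PFKFB4 and COL7A1, which are above 0 in both lines, and APLN lies at 1.77 and -2.00 among neighbours within 0.59 of 0.

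Receptors for either peptide were scarce in these cells. APLNR had 0 counts in all 3 HEK-293T siNegative libraries, which allows up to 0.0248 to 0.027 CPM a library (3 counts, counting error only), and at most 4 counts in any other library. CRHR2 had 1 to 12 counts in HEK-293T libraries and 0 in all 6 HT-1080 libraries, which allows up to 0.0919 to 0.11 CPM a library. CRHR1, the receptor for corticotropin-releasing factor and urocortin, had 13.96 to 41 counts in HEK-293T and 0 in all 6 HT-1080 libraries. Its log2 change in HEK-293T was 0.89 (edgeR adjusted p = 0.17). UCN2 was thus highest in the line without a count of either of its family's receptors.

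The other ligands were at or near 0 counts, apart from UCN. APELA, the second ligand of APLNR, had at most 9 counts in HEK-293T and 0 in HT-1080. CRH and UCN3 had at most 1 count, and CRHBP, which binds and holds back ligands of the family, at most 6. UCN was the only other family member that could be tested in both lines. It had a mean of 0.245 ± 0.0543 CPM in HEK-293T siNegative and 0.582 ± 0.387 CPM in HEK-293T siHNRNPH1 (SD, n = 3; log2 change 1.23, edgeR adjusted p = 0.212). Without the library that stood apart the UCN change was 0.51 (adjusted p = 0.171). In HT-1080 UCN rose from 1.98 ± 0.479 to 3.46 ± 0.308 CPM (log2 change 0.73, SE 0.18; edgeR adjusted p = 0.0049), where UCN2 was lower after depletion, and this call was lost in the fit of all 12 libraries. Like UCN2 it was higher in HT-1080 before depletion, by 3.26 on the log2 scale (adjusted p = 7.62e-07).

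MME, a membrane peptidase that degrades apelin among other peptides, was higher in HT-1080 siNegative by 6.22 on the log2 scale (edgeR adjusted p = 1.88e-12). On depletion MME fell by 0.48 in HT-1080 (adjusted p = 4.56e-05) and had a change of 0.35 in HEK-293T (adjusted p = 0.34), which was 0.54 (adjusted p = 4.5e-06) without the library that stood apart. Its interaction of line and siRNA was -0.90 (adjusted p = 0.0103).

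The proteases and finishing enzymes that turn precursors into peptides mostly rose in HT-1080. In that line 65.3% of all genes passed, 32.7% higher and 32.6% lower. Of 8 enzymes tested there, 7 rose and 0 fell, with a median log2 change of 0.52 against 0.01 over all genes. They include PCSK1 (1.54), PCSK5 (0.70), PCSK7 (0.55), CPE (0.49), PCSK6 (0.45), PAM (0.43) and FURIN (0.33), with edgeR adjusted p between 5.89e-06 and 0.00114. In HEK-293T, where 10.0% of all genes passed, 1 of 8 tested passed: PCSK2, which had 0 counts in HT-1080. PCSK2 rose in HEK-293T from 0.176 ± 0.047 to 0.656 ± 0.149 CPM (SD, n = 3), a log2 change of 1.88 (edgeR adjusted p = 0.0227). Without the HEK-293T siHNRNPH1 library that stood apart, 5 of 9 rose and 3 fell in HEK-293T, where 61.8% of all genes then passed.

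Hypoxia-inducible genes, a class to which APLN is counted in endothelial cells, showed no common direction in HEK-293T. Of 19 tested, PFKFB4 (1.09) and NDRG1 (0.97) rose and P4HA2 fell by 0.74, where 10.0% of all genes passed. The list median was 0.00 against 0.02 over all genes. Without the library that stood apart 10 rose and 5 fell, where 61.8% of all genes passed. In HT-1080, where 65.3% of all genes passed (32.7% higher and 32.6% lower), 12 of 19 rose and 5 fell. The median there was 0.29 against 0.01. EGLN3 (-1.19) and BNIP3 (-1.13) fell there, while P4HA1 (0.95) and ANKRD37 (0.67) rose. The change differed between the lines for 8 of 20 genes, 4 in each direction, against 19.0% of all genes. Before depletion 17 of 20 were higher in HT-1080 and 3 were lower, with a median of 1.67 against -0.10. Of all genes 40.8% were called higher and 45.8% lower in that comparison.

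Of 10 genes that cyclic AMP is known to induce, 6 rose and 0 fell in HT-1080, where 65.3% of all genes passed (32.7% higher). In this line CRHR2 had no count and UCN2 was lower after depletion. The median of the 10 was 0.59 against 0.01 over all genes. The largest rises were those of NR4A2 (1.85), DUSP1 (1.81), NR4A3 (1.71) and PDE4B (1.12). In HEK-293T, where UCN2 was higher after depletion, SIK1 rose by 0.87 (edgeR adjusted p = 0.0413) and the other 9 did not pass. Of all genes 10.0% passed there. Without the library that stood apart 6 rose and 2 fell in HEK-293T, against 61.8% of all genes.

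Of 37 other precursors of peptide hormones and neuropeptides, 19 could be tested in HEK-293T and 7 in HT-1080. In the fits of all libraries none was called in both lines, so no opposite calls could occur among them there. Over all genes tested in both lines, opposite calls were found in 1.47% in those fits, a share not counted without the library that stood apart. Of the 19 tested in HEK-293T, CHGA (1.63, adjusted p = 0.0449 by edgeR) and IGF2 (0.87, adjusted p = 0.0339) rose and 0 fell, against 10.0% of all genes called. Without the library that stood apart 9 of 19 rose and 3 fell, against 61.8% of all genes, and PTHLH was among those that rose (0.73, edgeR adjusted p = 0.00977). Of the 7 tested in HT-1080, SCG2 (2.70), VGF (2.32), STC2 (1.25) and STC1 (0.89) rose and 0 fell, against 65.3% of all genes called. PTHLH, singled out after its values were seen, had the signs of APLN and UCN2, with a log2 change of 0.87 in HEK-293T (edgeR adjusted p = 0.0612), -0.52 in HT-1080 (adjusted p = 0.069) and a difference of -1.46 between the lines (adjusted p = 0.00658). The HEK-293T calls of HNRNPH1, PFKFB4, COL7A1, PCSK2, NDRG1, P4HA2, SIK1, CHGA and IGF2 were each lost when any HEK-293T siNegative replicate was left out, and each held without replicate 1 of HEK-293T siHNRNPH1. Leaving out replicate 2 of that group also ended each of these calls except that of COL7A1.

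**Figure D4:**
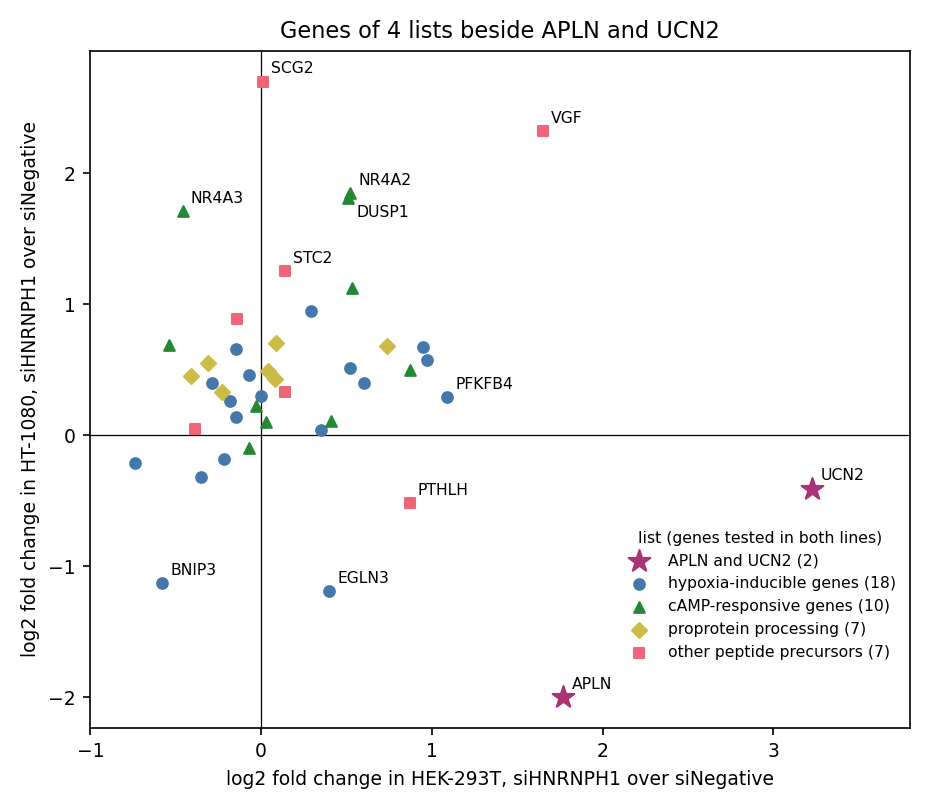
Log2 fold change of siHNRNPH1 over siNegative in HEK-293T (horizontal) against HT-1080 (vertical) for the genes of 4 lists that were tested in both lines, with APLN and UCN2 as stars. SCG2 and VGF lie above 2 on the vertical axis, and APLN (1.77, -2.00) and UCN2 (3.23, -0.41) lie to the lower right.

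The genes most similar in pattern across the 12 libraries differed for APLN and UCN2. Likeness was Pearson's r of log2(CPM + 1) over 17353 genes, which takes no account of level or size of change. For APLN they were NOL9 (r = 0.9534), PAK1 (0.9502), MRPS35 (0.9395), CHST4 (0.9349) and GRWD1 (0.9337). For UCN2 they were UBA7 (0.9963), FAM83G (0.9947), MTMR11 (0.9947), SPATS2L (0.9946) and RAB1A (0.9926). UBA7 ran from 0.719 CPM in HEK-293T siNegative to 5.59 CPM in HEK-293T siHNRNPH1 and stood at 36.2 and 35.7 CPM in the same groups of HT-1080. NOL9 ran from 47.7 to 81.2 CPM in HEK-293T and from 55.2 to 37.5 CPM in HT-1080. PAK1 and RAB1A changed less, with group means of 44.8 to 64.2 CPM and of 99.7 to 150 CPM. These coefficients are descriptions over 4 groups of libraries that share line and depth, and with a pseudocount of 0.1 CPM 4 of the 5 genes for APLN and 3 of the 5 for UCN2 stayed among the first 5.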

How the data were processed

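Expected counts per transcript were deposited by the authors in 1 table per cell line, covering 251295 transcripts. Per the submitters' processing notes they come from RSEM on GRCh38.p13, and the aligner, versions and annotation release are not given in the sources used here. Labels gave every sample's group, and no column was left unmatched. Expected counts were summed per gene, rounded, and tested over all genes with edgeR 4.0.16 (limma 3.58.1, R 4.3.3): filterByExpr, TMM scaling, robust quasi-likelihood test, two-sided, Benjamini-Hochberg adjustment, threshold 0.05. Each line's siRNA contrast used its 6 libraries, the line contrast the 6 siNegative libraries, and the interaction all 12. The scripts were tested on simulated data. CPM divides unrounded counts by the library total. p-values measure the spread between these libraries. The IsoSeq transcript models hold coordinates only, and exon overlap on the same strand of at least 1 base placed a model at a gene. Patch releases p13 and p14 share primary chromosome coordinates.

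The members, lists and tests were chosen with earlier results of these data known. Named genes are APLN, UCN2, HNRNPH1, their receptor, ligand and enzyme lists, 3 neighbours on each side, up to 4 called genes of largest change per further list and line, and the 5 most similar genes. A planned test of transcript usage could not be run, since each of the 2 genes has 1 transcript. Alternatives were DESeq2 1.42.0, other scalings, no filter, a fit of all 12 libraries, a replicate block and leaving out each library. 1 gene of the enzyme lists is not reported here.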

Additional observations from a re-analysis of the deposited data

Results flagged for a closer look

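The siRNA effect differed between the lines for 20 of the genes named above, as HT-1080 minus HEK-293T on the log2 scale. Of all genes 19.0% passed the test of that difference. Some genes were named because they were called with a large change, so the count of 20 is no result about the lists. For APLN (-3.85) and UCN2 (-3.71) every HEK-293T siHNRNPH1 library lay above and every HT-1080 siHNRNPH1 library below the controls of its line. This difference chose them and was not tested anew.

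The other 18 passed the interaction test of edgeR, with adjusted p between 6.75e-05 (SCG2) and 0.0403 (FURIN). Beside UCN2 these were COL7A1 (-1.11) and PFKFB4 (-0.88). Among peptidases and processing enzymes they were MME (-0.90), FURIN (0.49), PCSK6 (0.79) and PCSK7 (0.79). Among hypoxia-inducible genes they were EGLN3 (-1.67), BNIP3 (-0.63), NDRG1 (-0.46), P4HA1 (0.60) and P4HA2 (0.46). Among cyclic AMP-responsive genes they were NR4A3 (2.11), NR4A2 (1.26) and DUSP1 (1.23), and among peptide precursors SCG2 (2.62), STC2 (1.04), STC1 (0.97) and PTHLH (-1.46). The BNIP3 and FURIN calls were lost in 10 and 11 of the alternatives tried, that of NDRG1 in 2 (scaling by library size alone and the replicate block) and that of P4HA2 in 1 (the replicate block).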

How the results depend on the processing

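APLN and UCN2 kept their direction in all 102 alternative fits. Leaving out each library gave APLN 1.26 to 1.41 for the line difference, 1.73 to 1.81 in HEK-293T, -2.07 to -1.92 in HT-1080 and -3.91 to -3.76 for the interaction. UCN2 gave 5.97 to 6.18, 3.12 to 3.36, -0.44 to -0.37 and -3.84 to -3.58. The counts of called genes moved more, and the cause was not tested. The 1997 genes called in HEK-293T became 1302 with no filter, 4551 in a fit of all 12 libraries and 3982 with DESeq2. Leaving out a library gave 0 to 12557, the highest without replicate 1 of siHNRNPH1 and the 0 without siNegative replicate 2 or 3 (3517 and 3486 at an unadjusted p under 0.05). The 10538 genes in HT-1080 became 6237 in the fit of all 12 libraries, and 9535 to 11625 on leaving out a library. The 4036 of the interaction ran from 2776 to 9535, the highest again without that replicate 1, and the 17125 of the line difference from 15610 to 18004. Among named genes 83 of 1214 alternative fits lost a call, 49 of them in HEK-293T, and the interaction of UCN (-0.58, not called) ran from -0.93 to 0.17, the reversed value being that without replicate 1 of HEK-293T siHNRNPH1.

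The replicate numbers did not pair the libraries: same-numbered deviations correlated at 0.029 to 0.111 in HEK-293T, 0.018 to 0.105 in HT-1080 and -0.121 to -0.034 between the lines, and no comparison had every library closest to its own number. With the replicate block 0 genes were called in HEK-293T (4169 at an unadjusted p under 0.05 by edgeR) and 2535 in the interaction, while APLN was 1.77 and UCN2 3.23 in HEK-293T and -3.84 and -3.71 in the interaction. Alternatives on transcript usage were not run, since each gene has 1 transcript.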
